A study of Homo sapiens with 6 samples.

Results

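The LC3 and GABARAP family are the human homologues of the yeast protein Atg8. The 6 members described here were the rows of the deposited table whose symbol was MAP1LC3A, MAP1LC3B, MAP1LC3B2, GABARAP, GABARAPL1 or GABARAPL2. Each symbol had 1 row, so the members were 6 of 78304 genes, 3 in the LC3 subfamily and 3 in the GABARAP subfamily. They were measured in the established hepatocellular carcinoma cell line Huh7, in 6 poly(A) RNA-seq libraries. In 3 libraries the cells had received the compound 16'-DEC for 24 h and in 3 DMSO as the control for 24 h, in both cases 24 h after seeding. All cells were labelled wild type, and the dose of 16'-DEC is not given in the sources used here. The study's title concerns autophagy, and the comparison asked which transcripts differ after the compound.

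Proteins of this family are small and resemble ubiquitin. They are made as precursors, which ATG4 proteases cut after a glycine near the carboxyl end. The exposed glycine is activated by ATG7, passed to ATG3 and joined to the membrane lipid phosphatidylethanolamine with the help of the ATG12-ATG5-ATG16L1 complex. On the autophagosome membrane the proteins bind partners that carry a short LC3-interacting region (LIR). LC3 proteins are best known for membrane growth and cargo capture, and GABARAP proteins for activation of the ULK1 kinase complex and for fusion with the lysosome. The measurements below are of messenger RNA, which does not show how much protein is lipid-bound.

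The last 48 coding bases of each member show the site on which this processing acts. Sequences run 5′ to 3′, were read from GENCODE 29 transcripts (GRCh38), end with the stop codon, and have the glycine codon in capitals.
MAP1LC3A (chr20:34559851-34559898, + strand): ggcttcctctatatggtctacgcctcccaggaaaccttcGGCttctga
MAP1LC3B (chr16:87403050-87403097, + strand): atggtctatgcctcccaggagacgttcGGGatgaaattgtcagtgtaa
MAP1LC3B2 (chr12:116576273-116576320, + strand): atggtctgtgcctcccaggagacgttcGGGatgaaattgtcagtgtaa
GABARAP (chr17:7240854-7240901, - strand): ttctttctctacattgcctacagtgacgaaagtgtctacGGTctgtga
GABARAPL1 (chr12:10221805-10221852, + strand): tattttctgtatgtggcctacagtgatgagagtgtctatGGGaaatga
GABARAPL2 (chr16:75577322-75577369, + strand): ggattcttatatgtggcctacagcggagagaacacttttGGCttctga

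The glycine was codon 120 in the 3 LC3 genes and codon 116 in the 3 GABARAP genes. It was followed by 5 codons before the stop in MAP1LC3B and MAP1LC3B2, and by 1 codon in each of the other members. Coding sequences fell into the same subfamilies: GABARAP and GABARAPL1 were identical at 76.8% of aligned bases, GABARAP and GABARAPL2 at 64.3%, and GABARAP and MAP1LC3B at 50.7%. MAP1LC3A and MAP1LC3B were identical at 71.8%. MAP1LC3B2 matched MAP1LC3B at 99.5%, with 2 substitutions, C30G and A338G, counted from the first base of the start codon with the base of MAP1LC3B first.

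That likeness bears on the read assignment. Of the 50-base windows of the MAP1LC3B2 transcript, 43.4% also occur in MAP1LC3B, and 10.0% of the windows of MAP1LC3B occur in MAP1LC3B2, so the split between this pair is uncertain. For GABARAPL1, 1.62% of windows occur in the pseudogene GABARAPL3. No window of MAP1LC3A, GABARAP or GABARAPL2 occurs in another gene of the family. The labels describe no strand marking, so whether reads of genes that overlap on opposite strands can be told apart is not known. Strand cannot part reads in bases shared on the same strand. In the annotation 3 members share exonic bases with another gene. GABARAP shares 691 with AC120057.2 on its own strand and 571 with AC120057.3 on the opposite strand, MAP1LC3B shares 150 with FBXO31, and GABARAPL1 shares 329 with GABARAPL1-AS1, both on the opposite strand.

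Some facts of the libraries bear on every value. TPM are transcript abundances per length, scaled to the same sum in each library, so they are relative and do not give read depth. Pearson's r across genes, on the log2 scale, was 0.990 to 0.994 among 16'-DEC libraries, 0.982 to 0.989 among DMSO libraries and 0.898 to 0.922 across groups. Genes at 1 TPM or more numbered 13131 to 13459 with 16'-DEC and 14936 to 15118 in DMSO, with no overlap, and the part of this difference in the results was not tested. Summed levels of 8 hepatocyte markers lay at 12020 to 12450 TPM with 16'-DEC and at 13600 to 14170 TPM in DMSO, and all 8 were detected in every library. Within that sum 3 rose, namely APOA1 (0.73 on the log2(TPM + 1) scale), SERPINA1 (0.50) and HNF4A (0.32). The 3 that fell were AFP (-1.50), APOB (-1.74) and ALB (-0.17), where 22.7% of all tested genes were higher and 48.9% lower. After the adjustment for GC content and length described below, 6 were higher and 2 lower, and ALB stood at 0.77. Of all genes with a GC value 34.5% were then higher and 31.7% lower. The part of these markers in the family's values was not tested. The T cell marker CD3E and the fibroblast marker DCN were listed at 0 in all libraries, and the 3 endothelial markers summed to 0.267 to 0.717 TPM with 16'-DEC and 0.186 to 0.526 TPM in DMSO. The 4 fibroblast markers summed to 0.705 to 2.19 TPM with 16'-DEC and 1.58 to 2.52 TPM in DMSO. Of 4 blood cell markers only LYZ, a lysozyme gene, was high, and their sum lay at 827 to 949 TPM with 16'-DEC and 1635 to 1808 TPM in DMSO. Separate cultures are not stated for the replicates, and p-values thus cover the spread between these libraries, which may be technical. In bulk RNA, fewer cells with a transcript and less of it per cell cannot be told apart.

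After 16'-DEC, messenger RNA of GABARAP, the member highest in TPM, and of GABARAPL1, the lowest in TPM of the 4 well detected ones, was higher by a factor of 1.80 and 2.03. MAP1LC3B and GABARAPL2 did not pass the test. MAP1LC3A and MAP1LC3B2 were close to 0 in both groups. Of the 4 members that reached a mean of 1 TPM and were tested, 2 rose and 0 fell, where over all 14275 tested genes 22.7% were higher and 48.9% lower (limma on log2(TPM + 1), Benjamini-Hochberg adjusted p below 0.05). The groups did not overlap in 2 of the 4, and did not in 75.3% of all tested genes.

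GABARAP, first known for binding GABA type A receptors and a mediator of autophagosome maturation, lies on chromosome 17 from 7240014 to 7242770 (GRCh38, GENCODE 29, as for all positions; identifier ENSG00000170296). Its level was 387, 386 and 408 TPM in the 16'-DEC libraries, against 206, 225 and 226 TPM in the DMSO libraries. Every treated library lay above every control library. The means were 394 ± 11.9 TPM with 16'-DEC and 219 ± 11.5 TPM in DMSO (± SD, n = 3 each, as for all means here), a ratio of 1.80. On the log2(TPM + 1) scale GABARAP rose by 0.85 ± 0.0681 (± SE, 95% interval 0.69 to 1.00, limma adjusted p = 5.89e-06).

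The overlapping locus AC120057.2, which has no symbol in the deposited table, moved with it. It stood at 28.2, 19.0 and 23.7 TPM with 16'-DEC and at 8.59, 7.73 and 3.31 TPM in DMSO, and rose by 1.77 on the log2(TPM + 1) scale (limma adjusted p = 4.26e-04). AC120057.3, on the other strand, had 1.33 ± 0.174 TPM with 16'-DEC and 1.10 ± 0.0623 TPM in DMSO and did not pass (adjusted p = 0.315, limma). AC120057.2 averaged 23.7 TPM with 16'-DEC and 6.54 TPM in DMSO. How reads in the bases it shares with GABARAP were assigned is not given. The part of these loci in the GABARAP difference was not tested.

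GABARAPL1, also known as GEC1 and the closest relative of GABARAP in coding sequence, lies on chromosome 12 from 10212458 to 10223130 (ENSG00000139112). It had 45.4, 49.6 and 42.5 TPM with 16'-DEC, against 22.0, 22.9 and 23.0 TPM in DMSO. The groups did not overlap, and the DMSO libraries lay within 1 TPM of each other. Means were 45.8 ± 3.60 TPM with 16'-DEC and 22.6 ± 0.524 TPM in DMSO, a ratio of 2.03. GABARAPL1 rose by 0.98 ± 0.0827 on the log2(TPM + 1) scale (95% interval 0.80 to 1.17, limma adjusted p = 7.62e-06). The antisense gene that overlaps it, GABARAPL1-AS1, was listed at 0 in all 6 libraries.

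GABARAPL2, also called GATE-16 and known from membrane traffic within the Golgi, lies on chromosome 16 from 75566351 to 75577881 (ENSG00000034713). Its values were 96.8, 98.4 and 98.8 TPM with 16'-DEC and 93.2, 102 and 89.1 TPM in DMSO. The groups overlapped, with the highest library in DMSO. Means were 98.0 ± 1.05 TPM with 16'-DEC and 94.8 ± 6.66 TPM in DMSO. The difference of 0.05 ± 0.0742 on the log2(TPM + 1) scale had a 95% interval of -0.12 to 0.22 (limma adjusted p = 0.566). As deposited, this interval lay below those of its subfamily relatives, and it covers only the spread between these libraries. After the adjustment for GC content and length described below, the interval was 0.44 to 0.71.

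MAP1LC3B, whose protein LC3B is the usual marker of autophagosomes, lies on chromosome 16 from 87383995 to 87404779 (ENSG00000140941). It had 185, 207 and 200 TPM with 16'-DEC, against 175, 198 and 178 TPM in DMSO. The ranges overlapped. Means were 197 ± 11.4 TPM with 16'-DEC and 184 ± 12.2 TPM in DMSO, and the difference was 0.10 ± 0.0779 on the log2(TPM + 1) scale (95% interval -0.07 to 0.28, limma adjusted p = 0.256). FBXO31, which overlaps it on the other strand, had 48.1 ± 5.70 TPM with 16'-DEC and 47.4 ± 4.50 TPM in DMSO (adjusted p = 0.893, limma).

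The other LC3 genes were barely detected. MAP1LC3A, on chromosome 20 from 34546854 to 34560345 (ENSG00000101460), was listed at 0.061, 0.225 and 0.142 TPM with 16'-DEC and at 0.18, 0.288 and 0 TPM in DMSO. MAP1LC3B2, on chromosome 12 from 116548105 to 116576448 (ENSG00000258102), was listed at 0, 0.053 and 0 TPM with 16'-DEC and at 0.081, 0 and 0 TPM in DMSO. Without the filter on low values neither passed (adjusted p = 0.939 and 0.830, limma), and such levels cannot show a difference. MAP1LC3C, which is not among the 6 members, was as low, at 0.218 to 0.453 TPM with 16'-DEC and 0.399 to 0.574 TPM in DMSO.

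**Figure D1:**
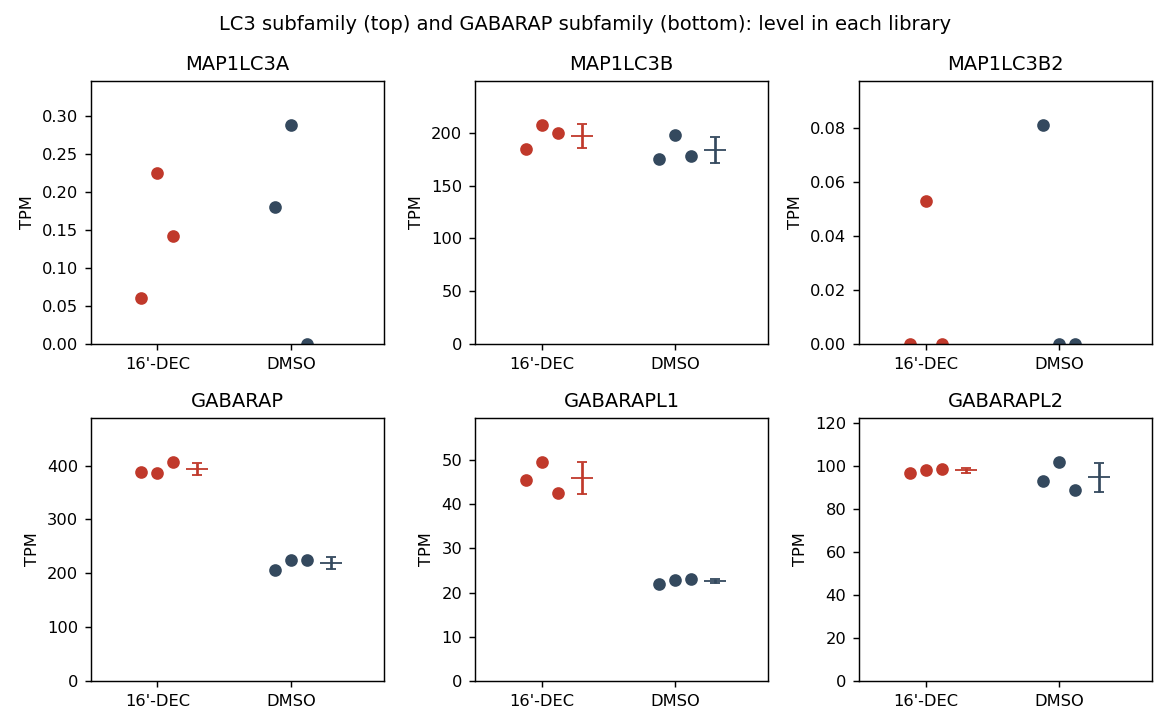
TPM of each member in every library, with the LC3 subfamily in the top row and the GABARAP subfamily in the bottom row. Points are libraries, bars are mean ± SD of 3 libraries for the 4 tested members, and each panel has its own linear axis from 0. GABARAP and GABARAPL1 are separated by group, with every treated library above 386 and 42.4 TPM, while MAP1LC3B and GABARAPL2 overlap.

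TPM are per length, so the deposited levels can be ordered between genes. The gene lengths used are not given and some members share bases with other genes, so the order is that of the deposited values. The order was GABARAP, MAP1LC3B, GABARAPL2, GABARAPL1, then MAP1LC3A and MAP1LC3B2, in both groups. Neighbours among the first 4 did not overlap within either group: in DMSO the lowest GABARAP library, at 206 TPM, was above the highest MAP1LC3B library, at 198 TPM. With 16'-DEC the lowest GABARAP library was at 386 TPM and the highest MAP1LC3B library at 207 TPM. MAP1LC3A and MAP1LC3B2 overlapped near 0 in DMSO and were apart with 16'-DEC, at levels too low to rank.

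Summed over the subfamilies, the GABARAP genes held 530, 535 and 549 TPM with 16'-DEC, against 321, 350 and 338 TPM in DMSO. The LC3 genes held 185, 208 and 200 TPM with 16'-DEC, against 175, 198 and 178 TPM in DMSO, nearly all of it MAP1LC3B. The GABARAP sum was thus 2.73 ± 0.146 times the LC3 sum with 16'-DEC and 1.83 ± 0.0611 times in DMSO, with no overlap between groups. Of the family total, which was 735 ± 18.1 TPM with 16'-DEC and 520 ± 26.3 TPM in DMSO, MAP1LC3B took 26.8% ± 1.04 with 16'-DEC and 35.3% ± 0.737 in DMSO. GABARAP alone took 53.6% ± 1.30 with 16'-DEC and 42.1% ± 1.41 in DMSO. These sums over chosen members are descriptions and carry no test.

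**Figure D2:**
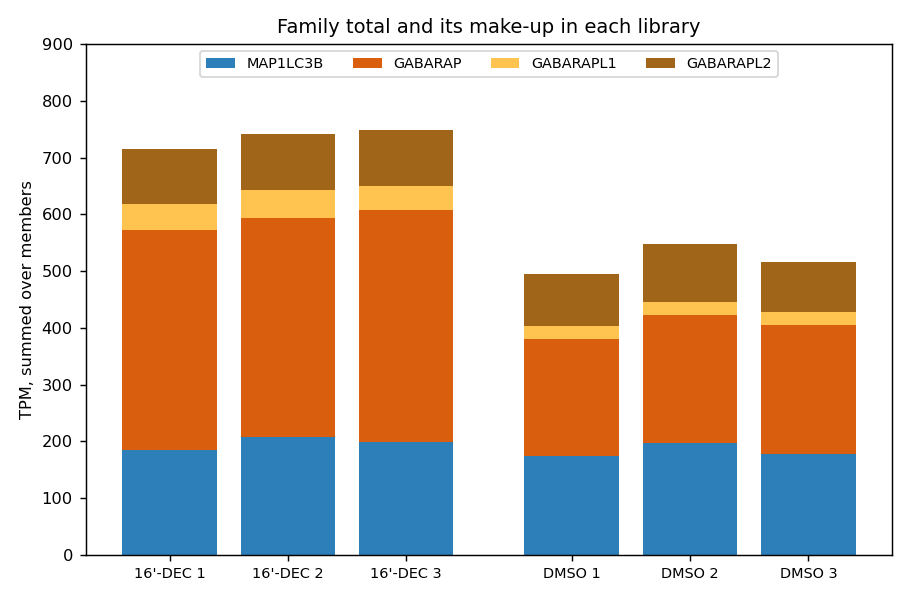
TPM of the 4 detected members stacked for each library, 16'-DEC on the left and DMSO on the right. The MAP1LC3B and GABARAPL2 segments are of like height in all bars, and the taller 16'-DEC bars, 715 to 749 TPM against 496 to 548 TPM, differ mostly in the GABARAP segment.

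A ratio of a pair of genes within a library does not depend on how the library was scaled, apart from the pseudocount. The log2 ratio of GABARAP to MAP1LC3B was 1.06, 0.89 and 1.03 with 16'-DEC, against 0.23, 0.19 and 0.34 in DMSO. That of GABARAPL1 to MAP1LC3B was -2.08 ± 0.109 with 16'-DEC and -2.96 ± 0.0819 in DMSO. Both ratios were higher in 3 of 3 treated libraries than in any control, by 0.74 ± 0.0673 and 0.88 ± 0.0787 (± SE). The exact permutation test gave p = 0.1 for each (2-sided, 20 splits, 0.15 adjusted over 3 pairs), which is the smallest p this design allows. The ratio of GABARAPL2 to MAP1LC3B was -0.93, -1.07 and -1.01 with 16'-DEC and -0.90, -0.95 and -0.99 in DMSO, with overlapping groups (difference -0.05 ± 0.0493, exact permutation p = 0.4). With values adjusted for GC content and length, that difference was 0.298 (exact permutation p = 0.1, also the smallest possible). Those of GABARAP and GABARAPL1 to MAP1LC3B were then 0.62 and 0.75 (exact permutation p = 0.1 for each). These p-values are not adjusted over the pairs.

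The size of these changes depends on what the scaling holds constant. The median tested gene changed by -0.31, and relative to that median GABARAP stood at 1.15, GABARAPL1 at 1.29, MAP1LC3B at 0.41 and GABARAPL2 at 0.36 on the log2(TPM + 1) scale. By signed change, which leaves larger falls uncounted, 4.46% of all tested genes lay above GABARAP and 2.83% above GABARAPL1. The shares above MAP1LC3B and GABARAPL2 were 31.1% and 33.8%. Median-of-ratios scaling raised the median by 0.44, to 0.13, and quantile normalization raised it by 0.41. Under the first MAP1LC3B was called at 0.63 and GABARAPL2 at 0.57 (limma adjusted p = 2.90e-04 and 3.35e-04). Under the second they were called at 0.18 and 0.27 (limma adjusted p = 0.0394 and 0.00682), where the median gene was at 0.11. Relative to the median, GABARAP, GABARAPL1, MAP1LC3B and GABARAPL2 stood at 1.24, 1.36, 0.50 and 0.44 under the first scaling. Under the second they stood at 0.75, 1.22, 0.08 and 0.16, so MAP1LC3B lay close to the median gene there. GABARAP and GABARAPL1 were called higher under both, and MAP1LC3B and GABARAPL2 therefore cannot be placed as unaltered or higher without a choice of scale. The overall split of calls moved too: of all calls 68.3% were lower as deposited, while median-of-ratios scaling gave 42.7% and quantile normalization 44.2%.

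**Figure D3:**
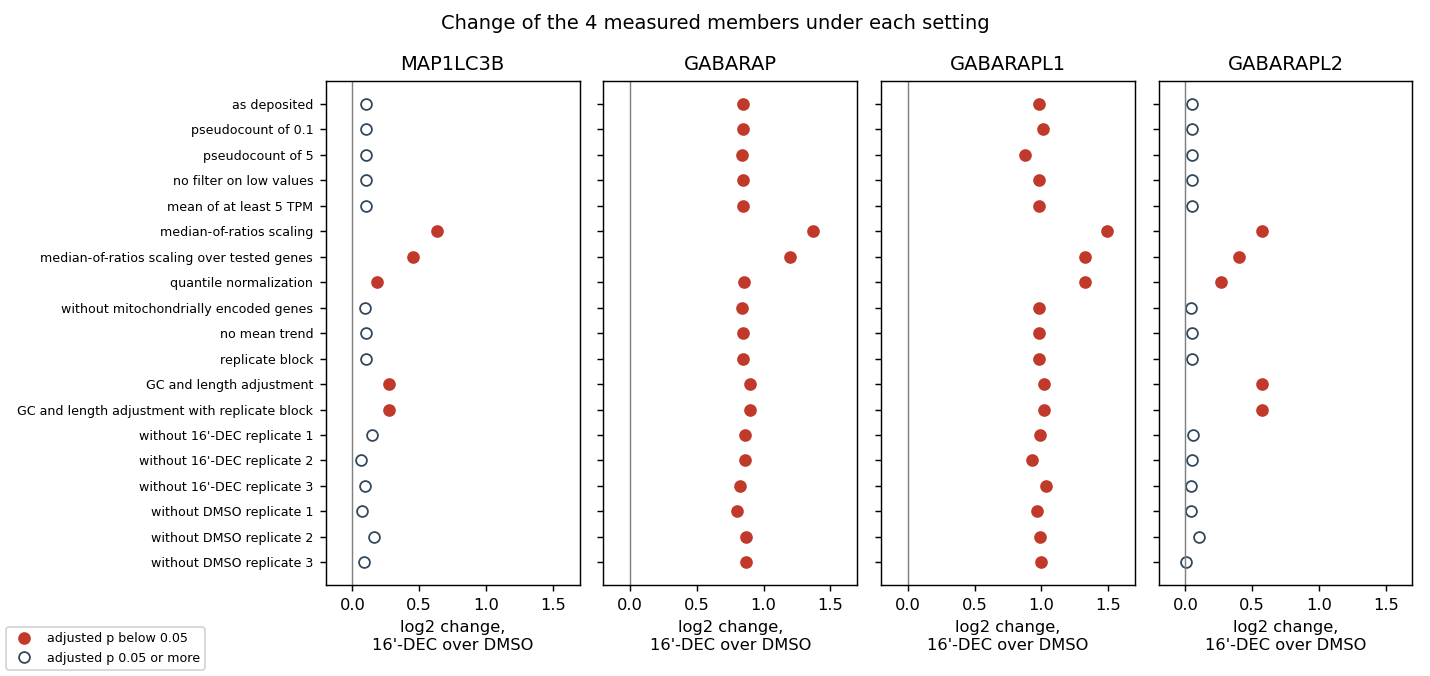
Change of each of the 4 tested members on the log2 scale (horizontal axis) under each processing setting (rows). Filled points have an adjusted p below 0.05. GABARAP (0.80 to 1.37) and GABARAPL1 (0.88 to 1.49) are filled in all rows, while MAP1LC3B and GABARAPL2 are filled only under rescaling or adjustment for GC content.

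Change also went with the GC content of transcripts across the whole table (Spearman's rho 0.68 over 13291 genes, which are not independent). The members lie in the middle of that range: the transcript of GABARAPL2 has 44.6% GC, MAP1LC3B 48.7%, GABARAP 49.8% and GABARAPL1 50.1%. Tested genes with 45% to 50% GC had a median change of -0.33, and 15.9% of them were called higher. In the bin from 40% to 45%, which holds GABARAPL2, the median was -0.86 and 5.30% were called higher. In the bin from 50% to 55%, which holds GABARAPL1, the median was 0.03 and 33.6% were called higher.

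An adjustment that removes a smooth trend on GC content and length from each library, and also re-centres it, left GABARAP at 0.90 ± 0.0539 and GABARAPL1 at 1.02 ± 0.0497 (limma adjusted p = 9.29e-06 and 4.73e-06). Both values moved by under 0.1. GABARAPL2 moved most, to 0.57 ± 0.0576, and was then called higher (adjusted p = 9.48e-05, limma). MAP1LC3B was called at 0.27 ± 0.0715 (adjusted p = 0.0111, limma). The median gene moved too, from -0.31 as deposited to 0.02 after adjustment. Relative to these medians, GABARAP went from 1.15 to 0.88 and GABARAPL1 from 1.29 to 1.00. MAP1LC3B went from 0.41 to 0.25 and GABARAPL2 from 0.36 to 0.55. All 4 tested members were higher after this adjustment, where 34.5% of 13291 genes were higher and 31.7% lower, and GABARAPL1 and GABARAP still had the largest changes of the 4.

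**Figure D4:**
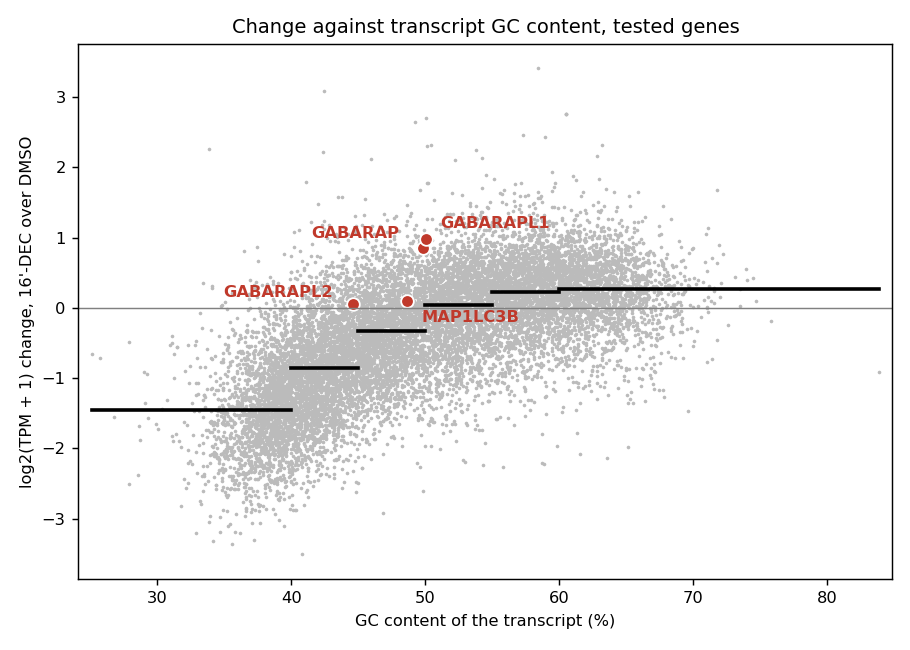
Change of every tested gene with a GC value (grey) against the GC content of its transcript in percent. Black bars are medians of GC bins, and the 4 tested members are red. GABARAP and GABARAPL1 lie far above the medians of their bins, -0.33 and 0.03, and GABARAPL2 lies above a bin median of -0.86.

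The promoters of the pair that rose and of MAP1LC3B are shown for comparison, from 250 bases before to 50 after the RefSeq gene start (GRCh38.p14), with motif matches in capitals. All 3 starts lie inside the longer gene bounds of GENCODE 29. A promoter was matched for 5 of the 6 members.
GABARAP (chr17:7242400-7242699, - strand): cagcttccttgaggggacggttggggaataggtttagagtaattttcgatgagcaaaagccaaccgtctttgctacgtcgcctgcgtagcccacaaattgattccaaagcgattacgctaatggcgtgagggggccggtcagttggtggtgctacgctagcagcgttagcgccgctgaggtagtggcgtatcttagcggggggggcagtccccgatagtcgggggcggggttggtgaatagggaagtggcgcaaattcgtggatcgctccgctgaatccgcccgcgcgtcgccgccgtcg
GABARAPL1 (chr12:10212627-10212926, + strand): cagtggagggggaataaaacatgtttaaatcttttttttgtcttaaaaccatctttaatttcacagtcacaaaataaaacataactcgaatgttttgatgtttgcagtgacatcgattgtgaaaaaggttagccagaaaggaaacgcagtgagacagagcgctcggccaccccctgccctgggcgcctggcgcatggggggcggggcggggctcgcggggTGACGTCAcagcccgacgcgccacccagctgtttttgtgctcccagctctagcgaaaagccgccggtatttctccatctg
MAP1LC3B (chr16:87392086-87392385, + strand): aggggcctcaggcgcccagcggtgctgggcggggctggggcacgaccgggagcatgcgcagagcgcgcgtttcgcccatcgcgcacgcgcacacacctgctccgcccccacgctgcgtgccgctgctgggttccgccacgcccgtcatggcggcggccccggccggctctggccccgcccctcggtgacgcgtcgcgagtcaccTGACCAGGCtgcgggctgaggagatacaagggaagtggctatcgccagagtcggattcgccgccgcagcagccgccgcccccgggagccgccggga

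Motifs were searched on both strands. They were the E-box CACGTG and the longer core TCACGTGA bound by TFEB and its relatives, the FOXO site GTAAACA, the heat shock element pair TTCNNGAA, the antioxidant response element TGACNNNGC, the ATF4 site TGATGNAA, and the cAMP response element TGACGTCA, which was added after the sequences had been read. The GABARAPL1 window holds the cAMP response element at position -30, and the MAP1LC3B window an antioxidant response element at position -46. No match to these letters was found in the GABARAP window, nor in those of GABARAPL2 and MAP1LC3B2. Of 35116 promoters in the table, 7.26% hold the E-box, 0.98% its longer core, 3.42% the FOXO site, 7.74% the heat shock pair, 13.3% the antioxidant element, 3.62% the ATF4 site and 1.85% the cAMP element. A match is a description of letters, not a site in use. GC content of these windows was 59.3% for GABARAP, 51.7% for GABARAPL1 and 75.7% for MAP1LC3B, where the median promoter has 58.7%.

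The genes listed for processing and attachment of these proteins, not all of them enzymes, changed in both directions. Of 13 such genes, all tested, 7 rose, 5 fell and ATG10 did not pass, and the list's median was 0.30, where the median of all tested genes was -0.31. Over all tested genes 22.7% were higher and 48.9% lower. In all 13 the groups did not overlap, as in 75.3% of all tested genes. After GC and length adjustment 9 were higher and 3 lower, beside 34.5% and 31.7% of all genes with a GC value, and with median-of-ratios scaling 7 were higher and 3 lower. Among those that rose most as deposited, ATG7, the activating enzyme, had 17.0, 16.1 and 11.5 TPM with 16'-DEC and 8.39, 7.88 and 10.1 TPM in DMSO. It rose by 0.69 on the log2 scale (limma adjusted p = 0.00293) and stood at 0.87 after the adjustment. TECPR1, which binds ATG5 and lysosomal membranes, rose by 0.61 and ATG4D, an ATG4 protease, by 0.60. After adjustment TECPR1 was at 0.48 and ATG4D at 0.29.

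Among those that fell, ATG3, the enzyme that carries out the transfer to lipid, had 26.9, 30.0 and 29.6 TPM with 16'-DEC and 56.2, 60.3 and 52.4 TPM in DMSO. It fell by 0.94 (limma adjusted p = 1.21e-05) and stood at -0.81 after the adjustment. ATG4C, another ATG4 protease, fell by 1.91 but was at -0.34 after adjustment. ATG5, part of the complex that directs the transfer, had 15.5 ± 1.18 TPM with 16'-DEC and 44.9 ± 3.33 TPM in DMSO. It fell by 1.48 and did not pass after adjustment (-0.17, adjusted p = 0.0809, limma). ATG12, picked here after its values were seen, fell by 0.66 as deposited and was called higher, at 0.81, after adjustment.

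**Figure D5:**
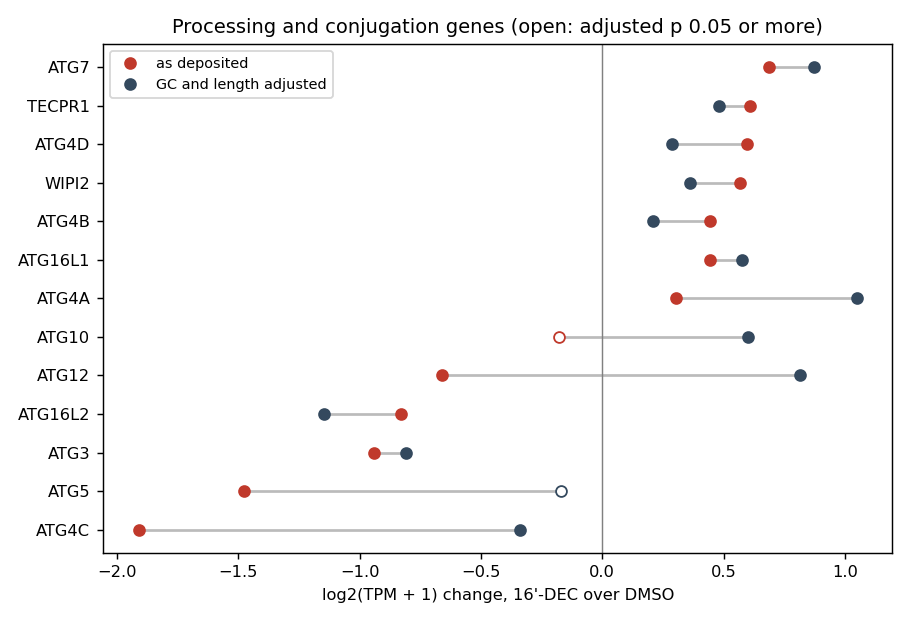
Change of the 13 processing and conjugation genes on the log2(TPM + 1) scale, as deposited (red) and after GC and length adjustment (dark), joined by a line for each gene. Open points have an adjusted p of 0.05 or more. ATG3 stays near -0.9, ATG4C and ATG5 move from below -1.4 to above -0.4, and ATG12 crosses 0.

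The counts for cargo receptors that bind family proteins through an LIR were near those of the whole table. Of 19 cargo receptors 18 were tested, RETREG1 being too low, and 5 rose, 9 fell and 4 did not pass (median -0.22), where 22.7% of all tested genes were higher and 48.9% lower. With median-of-ratios scaling 9 were higher and 7 lower, and the median was 0.31. SQSTM1, the receptor p62 for ubiquitin-tagged cargo, had 1037, 1025 and 963 TPM with 16'-DEC, against 353, 413 and 419 TPM in DMSO, and rose by 1.35 (1.15 after adjustment). STBD1, a glycogen receptor that binds GABARAPL1, rose by 0.84 (1.07 after adjustment). CCPG1 and SEC62, both receptors for the endoplasmic reticulum, changed by -2.07 and -1.82 and were at -0.62 and -0.24 after adjustment. With that adjustment 9 receptors were higher and 5 lower, beside 34.5% and 31.7% of all genes, and the median was 0.19.

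Among 16 LIR-bearing proteins that are not cargo receptors, all tested, 4 rose, 11 fell and 1 did not pass (median -0.54), beside 22.7% higher and 48.9% lower over all tested genes. PLEKHM1, a lysosomal tethering adaptor with a LIR that prefers GABARAP proteins, had 40.6 ± 6.55 TPM with 16'-DEC and 16.9 ± 1.23 TPM in DMSO, with no overlap, and rose by 1.21 (1.08 after adjustment). ATG13, a subunit of the ULK1 complex, rose by 0.81 (0.88 after adjustment). RB1CC1, the scaffold of that complex, fell by 2.35 (-0.84 after adjustment), and KBTBD7, an adaptor of a ubiquitin ligase that binds GABARAP proteins, fell by 1.51 (-0.52 after adjustment). After adjustment 7 were higher and 4 lower, where the shares of all genes were 34.5% and 31.7%, and the median was 0.13. With median-of-ratios scaling 5 were higher and 7 lower.

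Of 9 transcription regulators known to act on autophagy genes, 8 were tested, MITF being too low, and 2 rose and 4 fell (median -0.11), where median-of-ratios scaling gave 5 higher and 2 lower. These counts were near the shares of all tested genes, 22.7% higher and 48.9% lower. TFE3, a relative of TFEB, had 40.5, 39.2 and 37.4 TPM with 16'-DEC and 20.9, 25.7 and 24.0 TPM in DMSO, and rose by 0.71 (0.52 after adjustment). ATF4, a stress response factor, rose by 0.46 (0.22 after adjustment). The forkhead factors FOXO1 and FOXO3 changed by -1.06 and -0.79 (-0.58 and -0.49 after adjustment). The count of 4 lower became 2 without 16'-DEC replicate 1 or DMSO replicate 3. TFEB itself was at 3.41 ± 0.381 TPM with 16'-DEC and 3.35 ± 0.416 TPM in DMSO (limma adjusted p = 0.891), and was called lower after adjustment (-0.29, adjusted p = 0.0204).

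Genes with the most similar profile were sought among 9811 others with a symbol and a mean of at least 5 TPM, as the 3 with the smallest Euclidean distance between 6 log2(TPM + 1) values, each centred on its own mean. For GABARAP these were RPL10 (distance 0.0713), a ribosomal protein gene with 4853 ± 100 TPM with 16'-DEC and 2739 ± 202 TPM in DMSO, then RNASEK and PTRHD1. For GABARAPL1 they were INKA2 (0.0898), MED8 and KCMF1, for MAP1LC3B they were NTAQ1 (0.0518), GLRX3 and TGIF1, and for GABARAPL2 they were NFKBIA (0.0536), CCNI and UBE2A. All profiles come from the same 6 libraries, and in such a design any gene with a like change and spread lies close.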

How the data were processed

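The authors deposited 1 table of TPM (transcript abundance per gene) for 6 libraries, mapped to groups by sample title. Per the submitters' processing notes, cutadapt 1.9.1, HISAT2 2.0.1, HTSeq 0.6.1 and DESeq2 were used with GRCh38; the sources used here do not give their roles, the annotation or the gene lengths. Gene length and GC content enter TPM and the reads behind it, and absolute depth cannot be recovered from TPM.

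The 14275 genes averaging 1 TPM or more entered a single limma fit (version 3.58.1, R 4.3.3) of log2(TPM + 1), moderated with a trend on mean level. Tests were 2-sided, p-values were adjusted by Benjamini and Hochberg's method over these genes, and 0.05 was the threshold. The scale understates changes of low genes. GC content and transcript length came from GENCODE 29 (1 transcript per gene: APPRIS principal, then basic, then longest) and matched 93.1% of tested genes. The adjustment removed natural splines with 5 degrees of freedom each. Values given as after adjustment are from it. The fit was also run on simulated data with independent values, few planted changes and a linear trend on GC content. Those data held no shift of scale, so the run does not bear on the choice of scaling. Named genes of other lists were the largest changes each way among those called: up to 3 for the conjugation list and 2 for each of the others. The members and lists were chosen with earlier results of these data known. Replicate numbers were checked for pairing and did not pair the libraries. Figures were drawn with matplotlib 3.10.9.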

Additional observations from a re-analysis of the deposited data

How the results depend on the processing

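GABARAP and GABARAPL1 kept their direction and passed under all 18 alternatives (0.80 to 1.37 and 0.88 to 1.49). Without 1 library each, GABARAP ran from 0.80 to 0.87, GABARAPL1 from 0.93 to 1.04, MAP1LC3B from 0.07 to 0.16 and GABARAPL2 from 0.01 to 0.10, with no change of call. The ratios to MAP1LC3B then differed by 0.71 to 0.79 for GABARAP, 0.83 to 0.94 for GABARAPL1 and -0.09 to -0.02 for GABARAPL2. MAP1LC3B and GABARAPL2 passed as higher in 5 alternatives: at 0.63 and 0.57 with median-of-ratios scaling over genes above 0 in every library, at 0.45 and 0.40 with that scaling over tested genes only, which was added after seeing the data, at 0.18 and 0.27 with quantile normalization, and at 0.27 and 0.57 with GC and length adjustment, with or without the replicate block. Counts of higher genes became 6204, 5290 and 5990 under the same 3 scalings, against 3236 as deposited. They were 4589 with GC and length adjustment and 4339 with that adjustment and the replicate block. Counts of lower genes became 4621, 5376 and 4748 under the 3 scalings, against 6974 as deposited. They were 4213 with GC and length adjustment and 3982 with that adjustment and the replicate block. Without the filter 8884 of 39343 genes were lower, and with a mean of at least 5 TPM 4934 of 10192. The ratio of GABARAPL2 to MAP1LC3B differed by -0.05 as deposited and by 0.298 after GC and length adjustment, and the cause was not tested. Same-numbered libraries deviated from their group means with correlations of 0.0941, -0.182 and -0.0726, so the numbers were not taken as pairs. With the replicate block 3014 genes were higher and 6823 lower, and no tested member changed its call, while the lower regulators numbered 2. Of the 18 list genes named by the rule none reversed, and ATG5 alone lost its call, after GC and length adjustment. ATG12, named outside that rule, reversed there, at 0.81 after adjustment and -0.66 as deposited. TPM carry no depth, so no limit can be set on MAP1LC3A and MAP1LC3B2.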
